A study of Rattus norvegicus with 6 samples.

Results

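The baseline of rat primary cortical cells was described from the 3 arrays of cells that received a control vector, out of 6 arrays in the series. They were chosen by their titles, control 1 to 3, and not by any measured value. The cells came from rat brain and were kept in Eagle MEM with fetal calf serum and glucose. Each culture dish was given the control vector and a second vector for a cytoplasmically truncated low-affinity nerve growth factor receptor (LNGFR), and TransFectin was the transfection reagent. After 24 h the cells carrying that surface tag were separated magnetically, so every control array holds RNA of cells selected as transfected, and no untreated cells were described. The labels give no strain, age or sex of the rats and do not say whether the numbers stand for separate cultures. The spread between the 3 arrays may therefore be technical.

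A primary culture of the developing cortex holds neurons at early stages of process growth together with the radial glia and astrocytes that divide among them. Radial glia are the stem cells of the cortex, and they give rise first to neurons and then to astrocytes. Vessel cells, cells of the meninges and microglia can be carried along when the tissue is taken. Which of these populations contributed RNA can be read from transcripts that 1 population makes and the others lack.

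Signals are MAS5 values on a linear scale, in which the array medians were 102, 111 and 120. A gene was represented by the brightest of its probe sets. Levels are means of log2(signal + 7.42) over the 3 arrays, and 14217 genes were ranked by that mean. Probe sets differ in how strongly they bind, so a rank orders signals and not amounts of transcript. The ratio of the 3' to the 5' Gapdh control probe set, which rises when labelled transcripts are short, was 13.8 on control 1, 3.74 on control 2 and 5.04 on control 3. The Actb ratio was 22.7, 11.0 and 13.5. Pearson correlations of log2 signals between pairs of arrays lay between 0.950 and 0.955 across probe sets.

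A list of 52 measured genes of other tissues, such as liver, muscle, pancreas and testis, served as the reference for dim signals. Their median log2 signal was 4.76 (a signal of 19.7), and 90% of them lay at or below a signal of 59.9. Alb, the plasma protein albumin made by the liver, measured 48.3, 54.8 and 52.0 (picked with its values known). One gene of the list was bright. Myh1 is a myosin heavy chain of skeletal muscle in the platform annotation, and it measured 7173, 6536 and 14035. All 5 probe sets under that symbol were bright, with signals from 937 to 14035. Whether they report Myh1 itself was not tested. The table has no detection calls, so a signal near the reference is called near background here without a test.

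Among the 25 brightest genes, 11 encoded ribosomal proteins, led by Rps23 with signals of 24107, 21496 and 25607. Many ribosomal protein genes have near-identical processed copies, so their values are uncertain. The mitochondrial cytochrome oxidase genes COX1 (23800, 19507 and 24855) and COX2 (22956, 17284 and 22807) followed. Mrfap1, H2az1, Hmgn1, Txn1, Eef1a1, Actg1, Ywhaq, Eif4g2 and Sub1 were also in this group, and they serve chromatin, redox balance, translation, the cytoskeleton and signalling in most cells. The 3 others belong to fewer cell types. Fabp7, the brain lipid-binding protein of radial glia, was 8th by rank with signals of 18783, 16380 and 17890. Vim, the intermediate filament of radial glia, astrocytes and mesenchymal cells, was 16th with 15680, 16546 and 15710. Fabp5, a fatty acid-binding protein related to Fabp7, measured 12683, 16471 and 16231. Across these 25 genes the highest array exceeded the lowest by 1.04-fold to 1.33-fold.

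**Figure D1:**
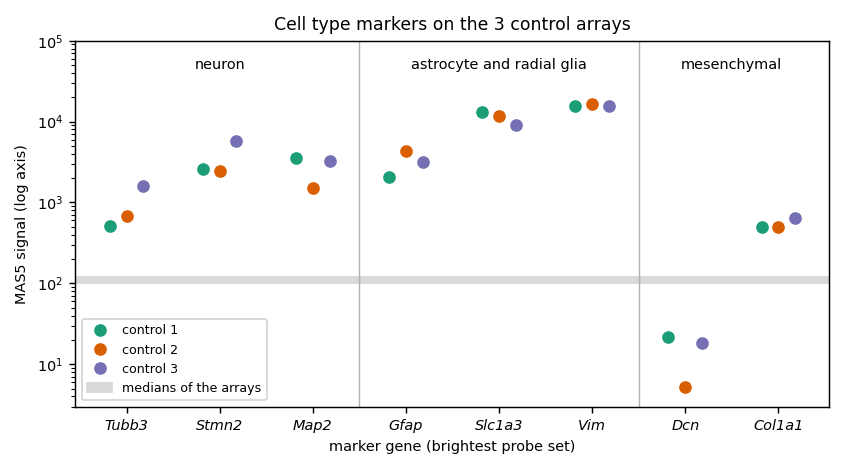
Signals of the 8 marker genes (MAS5 signal, log axis) on control 1, 2 and 3, 1 point per array, with the range of the array medians as a grey band. Vim and Slc1a3 lie at 9178 or above on every array, the neuronal markers lie between 505 and 5713, and Dcn lies under the band.

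The 8 markers separated into bright, intermediate and dim. Of the neuronal ones, Stmn2, a microtubule regulator of growing axons, measured 2623, 2473 and 5713. Map2, a microtubule protein of dendrites, measured 3557, 1507 and 3271, and Tubb3, the neuronal beta-tubulin, 505, 685 and 1587. Each of them was above the median of its array, and none kept within 2-fold across the arrays. Tubb3 was represented by a probe set whose suffix (_s_at) marks probes shared by more than 1 transcript, and its other probe set read 27.4, 38.2 and 1.98. Of the glial ones, Slc1a3, the astrocytic glutamate transporter GLAST, measured 13328, 11734 and 9178, and Gfap, the astrocyte filament protein, 2063, 4344 and 3202. Gfap was dimmest on control 1 and brightest on control 2. The mesenchymal pair did not go together. Col1a1, a chain of type I collagen, measured 498, 492 and 648, whereas Dcn, the matrix proteoglycan decorin, measured 21.8, 5.26 and 18.4 and lay within the reference.

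**Figure D2:**
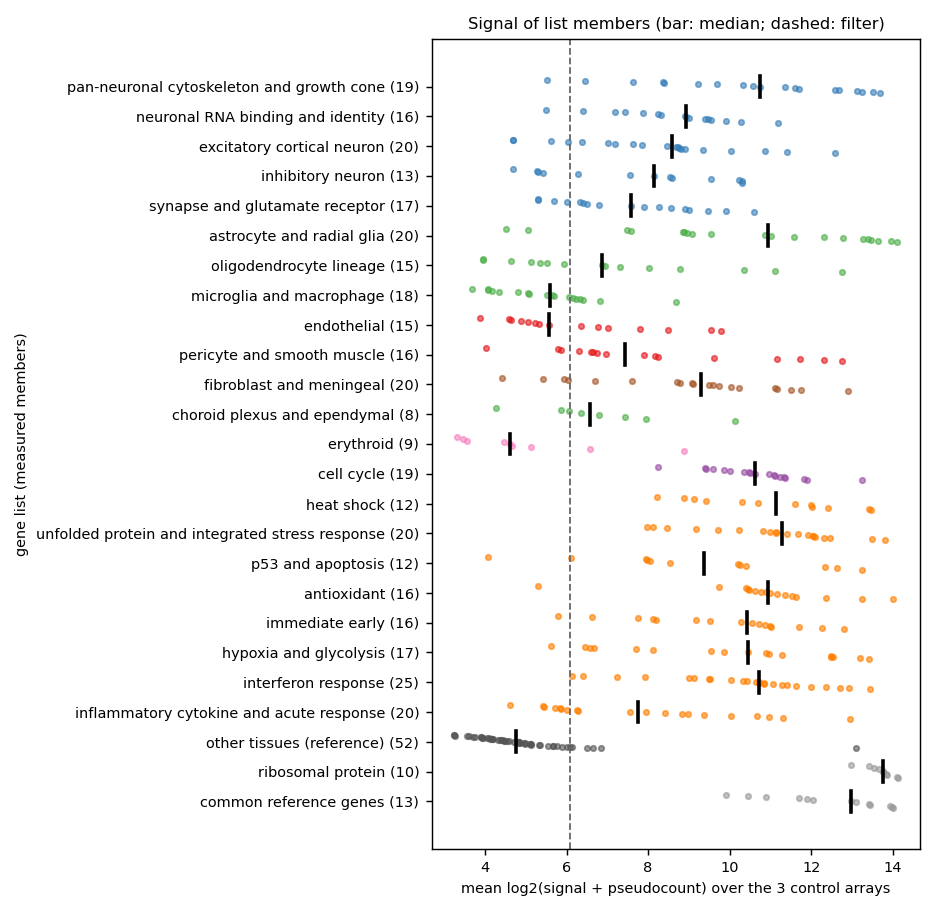
Mean log2(signal + pseudocount) over the 3 control arrays for every measured member of each gene list, coloured by role, with a bar at the list median and a dashed line at the filter. The ribosomal, unfolded protein, heat shock, astrocyte and growth cone lists sit to the right, and microglial, endothelial and erythroid lists overlap the genes of other tissues.

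By the mean over the 3 arrays, the astrocyte and radial glia list was the brightest of the cell type lists, with a median log2 signal of 10.94 over 20 measured members (9.06 with the mean of all probe sets of a gene), and 9 of the 20 were at or above the 90th percentile of all genes. Besides Fabp7, Vim and Slc1a3 these included Sparcl1, a secreted matrix protein (13509, 11375 and 13496), and the gap junction gene Gja1 (11682, 12331 and 8583). Tnc, the matrix protein tenascin C of the stem cell niche, measured 9006, 9846 and 10612. Pax6, a transcription factor of cortical progenitors, was chosen here after its values were seen and measured 2933, 1967 and 1518. The dimmest members were Slc1a2, the glutamate transporter GLT-1, and Ntsr2, with signals of at most 32.5 and 49.7, both also chosen after their values were seen.

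The growth cone and cytoskeleton list of neurons had a median log2 signal of 10.75 over 19 measured members (8.76 with the mean of all probe sets), with 8 at or above the 90th percentile. On control 3 alone its median was 11.57, above the 10.57 of the astrocyte and radial glia list. Its brightest members were Tubb2b, a tubulin of migrating neurons (12783, 12808 and 14074), Dpysl2, a mediator of axon growth (12282, 9932 and 12796), and Stmn1 (8799, 8768 and 11800). Gap43, a protein of growth cones, measured 8855, 8339 and 9451. Several of these, such as Tubb2b, Stmn1 and Marcks, are also made by dividing progenitors. RNA-binding and identity genes of neurons were dimmer, with a median of 8.92. Elavl2 measured 2767, 2056 and 2188, and Snap25, a protein of synaptic vesicle fusion, 520, 256 and 987.

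Excitatory cortical neuron genes had a median log2 signal of 8.57, and the brightest were regulators that progenitors also use. Lhx2, a selector of cortical fate, measured 8004, 6107 and 4710, and Nfib 3607, 2364 and 2279. Bcl11b, a factor of deep-layer projection neurons, measured 1936, 1126 and 2982. Neurod1 measured 578, 330 and 1353. Neurod6, the gene known as Math2 that the other arm of the study overexpressed, measured 386, 207 and 973 without any transfected copy. Slc17a6, the vesicular glutamate transporter VGLUT2, measured 184, 138 and 440. Tbr1 and Slc17a7, a layer factor and the transporter VGLUT1, stayed at or below 30.1 on every array; both were chosen after their values were seen.

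Inhibitory neuron genes had a median log2 signal of 8.13 over 13 members. Of the 13, 9 lay above the filter, against 10427 of all 14217 genes. Gad1, a GABA-synthesizing enzyme, measured 1554, 566 and 1897. Dlx1, a homeobox factor of interneuron precursors, measured 1650, 673 and 1756, and the neuropeptide gene Npy 1309, 926 and 1664. All 3 were lowest on control 2. Slc32a1, the vesicular GABA transporter, was dimmer at 50.8, 45.6 and 146. Genes of the synapse had the lowest median of the neuronal lists, 7.59. The AMPA receptor gene Gria2 was the brightest at 1946, 1454 and 1281, and the scaffold gene Dlg4 measured 574, 412 and 449.

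Oligodendrocyte lineage genes had a median log2 signal of 6.86 over 15 members. Of the 15, 8 lay above the filter, against 10427 of all 14217 genes. The early factor Olig1 measured 6938, 5421 and 8543, and Pdgfra, the growth factor receptor of oligodendrocyte precursors, 1886, 652 and 1780. Cnp, an enzyme of myelin-forming cells, was second in the list at 2386, 1982 and 2281, and Cldn11, a junction protein of myelin, measured 453, 191 and 182. The lineage factor gene Sox10 measured 158, 53.2 and 176, and Cspg4, the precursor proteoglycan NG2, 131, 75.7 and 346. The myelin genes Mag and Mog had signals of at most 53.8, and Mbp measured 115, 86.5 and 129. The 2 probe sets of Olig2, the partner of Olig1, read between 5.20 and 72.7.

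Microglial and endothelial genes had low median signals, 40.6 and 40.1. Of 18 microglial and macrophage members, 6 lay above the level that held 90% of the reference, against 73.7% of all genes. The complement genes C1qb and C1qc measured at most 19.9, Itgam at most 6.87 and Cx3cr1 52.0, 13.0 and 22.1. Tmem119 was the brightest of the list at 280, 312 and 742, followed by the lysozyme gene Lyz2 at 71.9, 106 and 153. Of 15 endothelial members, 7 lay above that level, and the defining junction and adhesion genes Cldn5 (44.4, 35.3 and 40.9) and Pecam1 (4.27, 21.0 and 1.95) did not. The angiogenic receptor gene Flt1 measured 286, 221 and 674. Esam, an adhesion molecule of endothelial cells, was also brightest on control 3. Eng, Egfl7 and Tek were the others above the level, with signals from 67.5 to 157. The 2 brightest of this list, Slco1c1 (864, 1069 and 742) and the glucose transporter gene Slc2a1 (899, 679 and 666), are also made by glia. Of 9 erythroid genes 2 lay above that level, Hbb, a beta-globin, at 251, 789 and 510, and Epor at 94.3, 67.8 and 106.

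Contractile genes listed for pericytes and smooth muscle were bright in part. Tagln, an actin-binding protein, measured 5675, 6691 and 8687, Cald1 5105, 4151 and 6208, and Myl9, a myosin light chain, 1693, 1782 and 3923. Acta2, smooth muscle actin, was dimmer at 149, 395 and 429, and Pdgfrb, the pericyte receptor (chosen after its values were seen), measured 62.9, 37.2 and 54.8. The fibroblast and meningeal list had a median log2 of 9.30 over 20 members. Collagen genes were among its brightest, with Col5a2 at 9210, 5524 and 8764, Col1a2 at 2473, 1755 and 2786, and Col3a1 at 1310, 817 and 1614. Fn1, fibronectin, measured 3213, 2904 and 4389. Of the 20, 4 lay below the reference level, namely Foxc1, Ogn, Lum and Dcn, named after their values were seen.

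Transcripts of dividing cells were bright. The cell cycle list had 19 measured members, with a median log2 of 10.63. All 19 were above the filter, against 10427 of all 14217 genes. Pcna, the sliding clamp of DNA replication, measured 11113, 8540 and 9802, Mki67 5109, 3397 and 3206, and the mitotic kinase gene Cdk1 4378, 3231 and 3364. Signals were highest on control 1 for 11 of 19, while 33.8% of all genes above the filter were highest on that array.

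Transcripts of both sexes were read on every array. Xist, the X-inactivation transcript of female cells, measured 732, 1628 and 2289. The Y-linked gene Eif2s3y measured 2224, 869 and 1252, and Uty, also on the Y chromosome, 1112, 1035 and 947. By the brightest probe sets, control 1 had the lowest Xist and the highest Eif2s3y signal. Of 4 Xist probe sets, 1 was lowest on control 2, at 729, 699 and 913, and the others were lowest on control 1.

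Several stress lists were bright at baseline. The unfolded protein and integrated stress response list had a median log2 of 11.28 over 20 members, with 10 of 20 at or above the 90th percentile. Hspa5, the endoplasmic reticulum chaperone BiP, measured 15499, 13924 and 13435, Canx 12640, 9992 and 12188, and the stress transcription factor gene Atf4 4177, 6285 and 6721. Atf3 and Ppp1r15a of this list were dimmer, at no more than 1359 and 499. Heat shock genes had a median of 11.14. The mitochondrial chaperonin genes Hspd1 (10673, 12006 and 11472) and Hspe1 (10776, 11056 and 10926) were the brightest. Bag3 (447, 799 and 468) and Hsf1 (243, 442 and 226) were dimmer. Of the antioxidant list, Txn1, thioredoxin, measured 16739, 16063 and 16684, and Hmox1, the inducible heme oxygenase, 2600, 4785 and 2555. The p53 and apoptosis list had a median log2 of 9.37 over 12 measured members, whose median percentile among all genes was 64.5. Of the 12, 3 were at or above the 90th percentile. Ccng1 was the brightest at 11628, 9260 and 8356. Cdkn1a, an inhibitor of cell division, measured 5096, 8506 and 5842 and Mdm2, the ubiquitin ligase of p53, 4877, 6996 and 4110. The death receptor gene Fas was dimmer at 186, 439 and 202, as was Gadd45a at 166, 381 and 210. No untransfected cells were on the arrays, so what part of these signals the transfection itself carries cannot be told apart from the culture.

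Interferon response genes were among the bright lists too, with a median log2 of 10.71 over 25 measured members. All 25 were above the filter, against 10427 of all 14217 genes. Interferons are signals of viral infection that switch on a shared set of antiviral genes through the STAT factors. Isg15, a ubiquitin-like modifier, measured 9541, 9538 and 5243. Rsad2, the antiviral enzyme viperin, measured 7421, 9708 and 4017, and Rig1, the symbol listed for the RNA sensor gene Ddx58, 3271, 4716 and 2007. All 3 were lowest on control 3.

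Interferon genes varied in a shared pattern across the arrays. Of 25, 17 (68.0%) had at least a 2-fold range, against 15.5% of all genes above the filter and 7.14% of those at or above the 75th percentile of signal. The highest array was control 2 for 21 of 25, where 35.1% of all genes above the filter were highest, and the lowest was control 3 for 21 of 25, against 30.4%. Ifit3 measured 413, 1280 and 241, and Gbp2, an interferon-induced GTPase, 1432, 3684 and 881. The median deviation of members from their own mean was 0.67 on control 2 and -0.63 on control 3, on the log2 scale, against 0.024 and 0.014 for all genes above the filter.

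Promoters of 19 of the 25 were in the RefSeq table of the GRCr8 assembly, each 250 bases before to 50 after the annotated start. They were searched on both strands for the core of the interferon-stimulated response element, GAAANNGAAA or TTTCNNTTTC. Of the 19, 13 (68.4%) held it, against 3.77% of all 27457 promoters and 2.91% of the 8738 promoters of genes above the filter. Among other lists the share ran from 0 of 13 growth cone promoters to 2 of 6 erythroid ones (33.3%). A match describes letters only and does not show that a factor bound there. Those of 3 members, chosen after their values were seen, are printed 5′ to 3′ with the match in capitals to show where it lies. The Rsad2 window is chr6:48788071-48788370 on the minus strand, the Gbp2 window chr2:234005477-234005776 on the plus strand and the Ifit3 window chr1:241527076-241527375 on the plus strand. The match began 147 bases before the start in Rsad2, 31 before it in Gbp2 and 44 before it in Ifit3.
Rsad2: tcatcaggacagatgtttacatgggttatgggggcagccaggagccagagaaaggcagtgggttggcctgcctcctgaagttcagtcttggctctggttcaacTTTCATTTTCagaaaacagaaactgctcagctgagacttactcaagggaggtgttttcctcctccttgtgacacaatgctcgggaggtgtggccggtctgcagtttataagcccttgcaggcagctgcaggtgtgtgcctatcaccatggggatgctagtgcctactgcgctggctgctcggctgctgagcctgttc
Gbp2: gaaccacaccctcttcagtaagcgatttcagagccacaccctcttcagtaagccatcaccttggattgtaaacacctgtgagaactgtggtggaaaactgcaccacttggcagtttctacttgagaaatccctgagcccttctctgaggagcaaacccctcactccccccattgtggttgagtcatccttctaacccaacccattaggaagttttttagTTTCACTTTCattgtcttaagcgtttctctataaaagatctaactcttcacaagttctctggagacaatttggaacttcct
Ifit3: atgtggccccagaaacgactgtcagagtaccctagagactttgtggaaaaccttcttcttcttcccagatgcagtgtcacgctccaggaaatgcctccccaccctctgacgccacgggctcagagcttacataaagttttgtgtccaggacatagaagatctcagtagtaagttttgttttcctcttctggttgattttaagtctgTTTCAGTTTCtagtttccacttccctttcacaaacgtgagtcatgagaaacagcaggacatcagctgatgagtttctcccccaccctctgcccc

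Inflammatory genes above the filter were also mostly highest on control 2, at lower signals, with a median log2 of 7.75 over all 20 measured members. Of the 20, 13 lay above the filter, against 10427 of all 14217 genes. Among these 13, 12 were highest on control 2, against 35.1% of all genes, and 11 (84.6%) had at least a 2-fold range, against 15.5%. The exception was Ptgs2 at 1809, 1064 and 2182, which was lowest on control 2. Ccl2, a chemokine for monocytes, was the brightest at 7782, 11662 and 5533. Vcam1, an adhesion molecule, measured 1568, 5203 and 1932, and Cxcl1 1845, 4283 and 1015. Lcn2, an acute phase protein of reactive astrocytes, had one of the wider ranges, at 238, 1223 and 127. On the same array the microglial genes ranged from 5.56 for Itgam to 312 for Tmem119. Lyz2 (106), Cd14 (88.2), Fcer1g (72.4), Cd68 (71.8), Csf1r (65.4) and Ctss (64.2) also exceeded the reference level of 59.9 on control 2. That level comes from 3-array means, by which 6 of the 52 reference genes of other tissues lay above it. On control 2 these included Ins1 at 143, Gh1 at 94.1, Lhb at 78.2, Pnlip at 68.7 and Cyp2e1 at 65.1. Of 6 microglial members above the filter, 4 were highest on control 3 and 1 on control 2, against 31.1% and 35.1% of all genes. The part of microglia in the inflammatory signals was not tested.

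**Figure D3:**
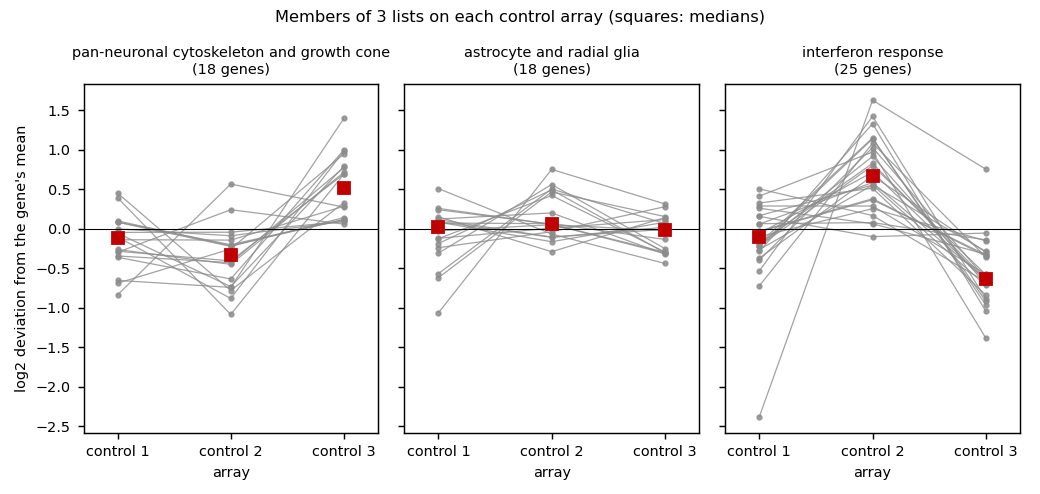
Log2 deviation of each gene from its own 3-array mean on control 1, 2 and 3, for members above the filter of the growth cone list (18 genes), the astrocyte and radial glia list (18) and the interferon list (25). Lines are genes and squares are medians, which are highest on control 3 for the growth cone list, highest on control 2 for the interferon list and between -0.016 and 0.056 for the astrocyte and radial glia list.

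Growth cone and identity genes of neurons ran opposite to interferon genes on control 2 and control 3. Of 18 growth cone members above the filter, 11 (61.1%) had at least a 2-fold range. The share was 15.5% of all genes above the filter and 7.14% of those at or above the 75th percentile of signal. On control 3, 15 of the 18 were highest, where 31.1% of all genes were highest. The median deviation of the 18 was 0.51 on control 3 and -0.33 on control 2. Bright members kept narrower ranges, 1.10-fold for Tubb2b, 1.29-fold for Dpysl2, 1.35-fold for Stmn1 and 1.13-fold for Gap43. Mapt, the axonal protein tau, measured 373, 350 and 1570, and its other probe sets were also brightest on control 3. Basp1, a growth cone protein, measured 1173, 968 and 3023, and Stmn3 1178, 683 and 2517. The other Basp1 probe set was dimmer and highest on control 1, at 204, 55.8 and 133. Among identity genes of neurons, 12 of 15 were highest on control 3, with a median deviation of 0.71. Of the others, 2 were highest on control 1, among them Elavl2, and 1 on control 2, Eno2 (982, 1741 and 1102). L1cam, an adhesion molecule of axons, measured 74.8, 106 and 327. In RNA of mixed cells, fewer neurons and less neuronal RNA per cell cannot be told apart.

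Astrocyte and radial glia genes differed less between arrays. Of 18 astrocyte and radial glia members above the filter, 3 (16.7%) had at least a 2-fold range, close to the 15.5% of all genes. Their median deviations were 0.022, 0.056 and -0.016 on control 1, 2 and 3. The 3 were Gfap, Nes and Clu, and all of them were lowest on control 1 and highest on control 2. Clu, the chaperone clusterin, measured 217, 783 and 576, and Nes, an intermediate filament of progenitors, 342, 735 and 591.

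**Figure D4:**
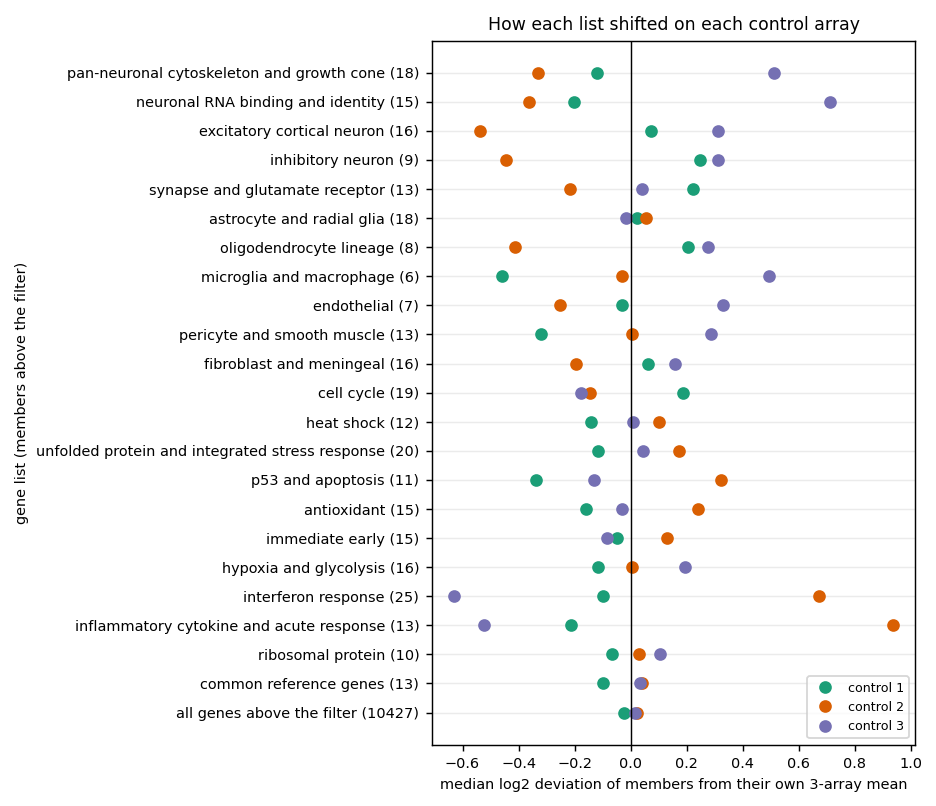
Median log2 deviation of list members above the filter from their own 3-array mean, 1 point per control array, for lists with at least 6 such members and for all 10427 genes above the filter. Interferon and inflammatory lists are highest on control 2, the neuronal lists are lowest there, and the astrocyte and radial glia list and all genes lie near 0.

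The remaining neuronal lists were also lowest on control 2, with median deviations of -0.54 for excitatory, -0.45 for inhibitory and -0.22 for synapse genes. Among excitatory members 11 of 16 were lowest on control 2, against 30.4% of all genes. On control 3 the deviations were 0.31, 0.31 and 0.039 in the same order. Synapse genes were highest on control 1, at 0.22, with 8 of 13 members against 33.8% of all genes. Oligodendrocyte lineage genes had a median deviation of -0.41 on control 2, with 7 of 8 lowest on it. Contractile genes of the pericyte list were lowest on control 1 for 10 of 13, against 39.2% of all genes, and highest on control 3 for 9, against 31.1%. Some stress lists were higher on control 2. Targets of p53 and apoptosis genes had a median deviation of 0.32 on control 2, where 8 of 11 were highest, and antioxidant genes 0.24, with 10 of 15, against 35.1% of all genes. Of the other p53 and apoptosis members, 2 were highest on control 1, among them Ccng1, the brightest, and 1, Bbc3, on control 3. The stress transcription factor gene Atf3 measured 454, 1359 and 302, and Ppp1r15a, an inhibitor of the integrated stress response, 113, 499 and 252.

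One gene stood apart from all others. Ttr, transthyretin, the thyroid hormone carrier made in quantity by the choroid plexus, measured 823, 11268 and 144, a 74.6-fold range on the log2(signal + pseudocount) scale. It was the widest of all 14217 genes, and the next widest was 20.0-fold. Other choroid plexus genes stayed dim, with Folr1 at 67.5, 114 and 54.2, Aqp1 at 97.8, 111 and 101 and Otx2 at 135, 254 and 133. By their brightest probe sets, all 5 members of that list above the filter were highest on control 2, against 35.1% of all genes. By the same probe sets, Ttr alone of the 5 exceeded 2-fold, against 15.5% of all genes. The dimmer probe sets of Aqp1 (22.1, 77.6 and 194) and Otx2 (7.67, 13.6 and 23.5) were highest on control 3. For these genes the direction therefore rests on the probe set chosen. Kcnj13, a member just below the filter, was lowest on control 2. What part choroid plexus tissue had in the Ttr signals was not tested.

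Genes with the largest excess on each array followed from a fixed rule over the 3555 genes at or above the 75th percentile of signal. On control 2 these were Ttr, Gbp2, Gadd45g (844, 3779 and 1686), Myh9 (646, 2727 and 1166) and Cxcl1. On control 3 they were Basp1, Stmn3, Fabp3 (706, 881 and 2211), Stmn4 (756, 921 and 2138) and the imprinted gene Nnat (2408, 5889 and 9373). Of these, Basp1, Stmn3, Stmn4 and Nnat are known from neurons. On control 1 they were Pbrm1 (3584, 1566 and 1504), Med18 (2184, 844 and 1146), Cdca7 (4258, 1759 and 2148), Hmbox1 and Rnf213. Pbrm1 is a chromatin remodelling subunit and Med18 a Mediator subunit. Of the 6 Pbrm1 probe sets, 3 were highest on control 1 and 3 were lowest there, among them one at 489, 1060 and 1312, so the excess rests on the probe set chosen.

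Some abundant housekeeping transcripts were low on control 1. The glycolytic enzyme genes Eno1 (3185, 7122 and 8376), Aldoa (3596, 7282 and 7813) and Tpi1 (1461, 2997 and 3558) were more than 2-fold apart, whereas Pgk1 (10847, 11229 and 10730) and Pgam1 (9329, 9197 and 9574) kept within 1.05-fold. A second Pgk1 probe set, shared between transcripts by its suffix, was also lowest on control 1, at 2734, 5257 and 4931. The elongation factor gene Eef2 measured 2065, 5992 and 6108, and the chaperone gene Hsp90ab1 1554, 5293 and 3567. Control 1 also had the highest 3' to 5' ratios of Gapdh and Actb. Their part in these values, and in other low values on control 1 such as contractile genes, Gfap, Nes and Clu, was not tested.

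**Figure D5:**
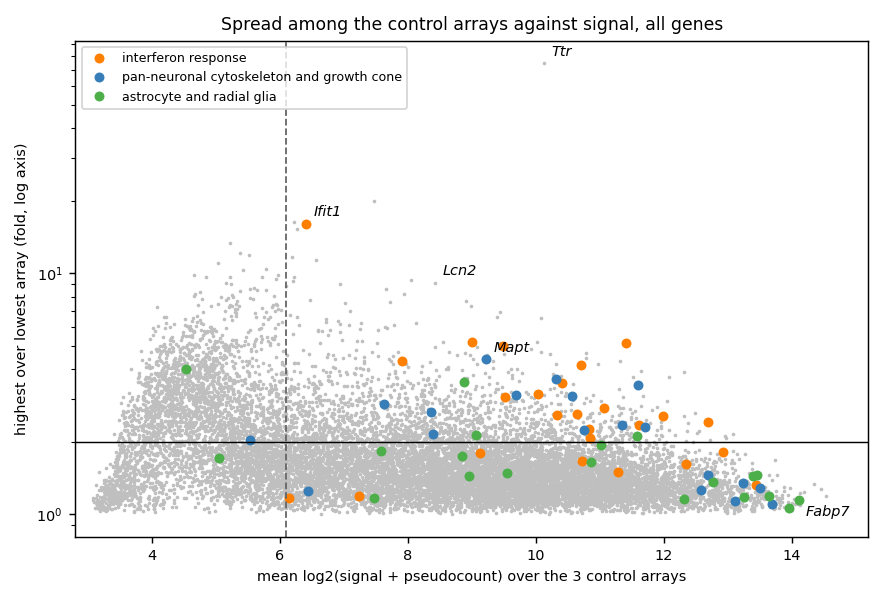
Fold range over the 3 control arrays (highest over lowest, log axis) against mean log2(signal + pseudocount) for all 14217 genes in grey, with members of 3 lists coloured, the filter dashed and a line at 2-fold. Ttr is the widest at 74.6-fold, most interferon and many growth cone genes lie above the line, and the brightest glial genes lie well below it.

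Over all genes the spread narrowed with signal. Of 10427 genes above the filter, 1618 (15.5%) had at least a 2-fold range, and of 3555 at or above the 75th percentile 254 (7.14%) did. The median range was 1.46-fold and 1.35-fold. The steadiest of those 3555 genes were Supv3l1 (1182, 1177 and 1175), Eif3m (8182, 8115 and 8116), Sar1b, Usp14, Wdfy1, Tgfb1i1, Ap2a2 and Cdk17. None of these is a marker of the cell types listed here. Ngfr, the rat gene of the receptor that served as the surface tag, read 21.5, 43.4 and 53.9, near background. The labels do not give the species of the tag's sequence, and a receptor cut short may lack the probed stretch, so this probe set checks nothing about the selection.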

How the data were processed

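Total RNA of selected cells was amplified in 2 cycles and hybridized to Affymetrix Rat Genome 230 2.0 arrays, per the labels' protocols. The deposited intensity table holds 1 linear signal per probe set and array, made with MAS5 by the authors, per the submitters' processing notes (settings not given in the sources used here). The mean after trimming 2% at each end was 500 on each control array, so no further scaling was applied. Of 31099 probe sets, 57 controls were set aside. The platform annotation gave 1 symbol to 20826, several to 436 and none to 9780, and 20758 were matched to RefSeq genes by gene number. Signals were taken as log2(signal + 7.42), the pseudocount being the 10th percentile of all positive values. The filter for statements on spread was a mean at or above the 40th percentile of probe sets (log2 6.10, signal 61.0), and reference genes were summarized at their 90th percentile. Ranges are folds on the log2(signal + pseudocount) scale. With 3 arrays of 1 group no test was run, the number of arrays limits the precision, and depth does not apply. Python 3.11.15, numpy 2.4.6 and pandas 2.3.3 were used.

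The members and the 27 gene lists were chosen with earlier results of these data known. Of the listed genes, 5 were found through a RefSeq synonym. Named are the 25 brightest genes, the 8 markers, up to 6 members of each list by signal and up to 2 others with the widest range, the 5 genes with the largest excess on each array, the 8 steadiest genes at or above the 75th percentile of signal, any member of the microglial, oligodendrocyte, endothelial and erythroid lists, Neurod6 and Ngfr. The calculations were tested on simulated data, in which all 200 genes changed 4-fold on 1 array were recovered. The simulated noise was smaller than the median SD of 0.285 among genes above the filter. How the 2-fold rule behaves at the spread of the data was not tested. Pseudocount, scaling, the rule for probe sets, the filter and each array were varied, and the columns of the Math2 arrays entered only the percentile behind the pseudocount.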

Additional observations from a re-analysis of the deposited data

How the results depend on the processing

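With 1 group of 3 arrays no test was run, so spread and direction are descriptions. No paired analysis was possible because only 1 group was described. The count of genes with at least a 2-fold range was 1618, and it was 1076 with a pseudocount of 50, 3579 with no filter and 997 with a filter at the 60th percentile. It lay between 632 and 884 when 1 array was left out, where 2 arrays give a narrower range by construction. With the mean of all probe sets of a gene, median log2 signals were 8.76 for the growth cone list, 9.06 for the astrocyte and radial glia list and 8.87 for the fibroblast list. Between 20 and 25 of the 25 brightest genes stayed among the brightest 25 under the alternatives run. The deviation of growth cone genes on control 3 stayed between 0.30 and 0.61, of neuronal identity genes there between 0.42 and 0.74, of interferon genes on control 2 between 0.33 and 0.69 and of inflammatory genes there between 0.61 and 0.94. Of 528 alternative deviations 13 changed sign, and the cause was not tested. With 1 array left out, the ranges on control 1 were -0.32 to 0.12 for growth cone, -0.46 to 0.17 for neuronal identity, -0.045 to 0.24 for inhibitory, -0.020 to 0.37 for oligodendrocyte, -0.33 to 0.24 for interferon and -0.61 to 0.029 for inflammatory genes. They were -0.18 to 0.014 for cell cycle genes on control 2 and -0.11 to 0.095 for p53 genes on control 3. Centring arrays on their medians gave 0.014 on control 1 for interferon genes and for common reference genes, and -0.0070 on control 3 for ribosomal genes. Endothelial genes gave 0.062 on control 2 with no filter and -0.011 on control 3 with the mean of probe sets. MAS5 signals near the reference have no order here.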
